A study of Homo sapiens with 34 samples.

Results

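APLNR, APLN, APELA, CXCR4, CXCL12 and ACKR3 encode the receptors and ligands of the apelin and CXCL12 systems. They were taken from the deposited tables as the genes carrying exactly these symbols, and all 6 were found among the 37951 genes listed and among the 17895 that passed the filter on low counts. RNA was sequenced from wild-type ESI017, a human embryonic stem cell line in long use, in 34 libraries, with 2 biological replicates of each of 17 conditions. The experiment asked whether cells brought to different positions of the primitive streak (PS) on day 1 differ in what they can become on day 2.

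The control (Ctrl) was undifferentiated cells in mTeSR Plus medium, labelled as collected at 48 h. The 24 h populations thus differ from Ctrl in time of collection and base medium as well as in the factors added. On day 1, DE(a) cells, the first step towards definitive endoderm (DE), were given activin at 100 ng/ml with the Wnt pathway activator CHIR99021 at 2 µM. Anterior PS (APS) cells were given activin at 30 ng/ml, bFGF at 20 ng/ml and CHIR99021 at 4 µM. Mid PS (MPS) cells were given activin at 30 ng/ml, bFGF at 20 ng/ml, BMP4 at 40 ng/ml and CHIR99021 at 6 µM. Posterior PS (PPS) cells were given the MPS mixture without activin. Each of these 4 populations was collected at 24 h, or moved on day 2 into DE(b) medium, into medium for paraxial mesoderm (PM) or into medium for lateral mesoderm (LM), and collected at 48 h. DE(b) medium held activin at 100 ng/ml and the BMP receptor inhibitor LDN193189 at 250 nM. PM medium held bFGF at 20 ng/ml, LDN193189 at 250 nM and the activin receptor inhibitor A8301 at 1 µM. The labels and methods name no CHIR99021 in PM medium. A supplementary legend of the study does give it as part of standard PM treatment, and the study's text refers to Wnt activation on day 2 of PM. The labels do not say whether the sequenced PM libraries received it, so contrasts with PM may include this difference. LM medium held BMP4 at 30 ng/ml, A8301 at 1 µM and IWP2, which blocks Wnt secretion, at 4 µM. Conditions are named by day 1 treatment and day 2 medium, so the established protocols are DE(a)-DE(b) for endoderm, APS-PM for paraxial and MPS-LM for lateral mesoderm. All libraries come from 1 cell line in monolayer culture.

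APLNR is a G-protein-coupled receptor with 2 peptide ligands, apelin (encoded by APLN) and Elabela, also called Toddler (encoded by APELA). In vertebrate gastrulation, Elabela acting through this receptor promotes the movement of mesendodermal cells, and the receptor later marks mesoderm and vascular progenitors. CXCL12 is a chemokine that attracts cells through the receptor CXCR4, which is widely used as a surface marker of definitive endoderm. ACKR3, formerly CXCR7, binds the same chemokine but couples to arrestins rather than G proteins and removes the chemokine from the surroundings.

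The coding bases of both apelin receptor ligands show how short the receptor's signals are. They were read from GENCODE v44 transcripts on build GRCh38, 5′ to 3′ on the coding strand and without the stop codon. Capitals mark the codons of the mature peptide, 32 codons of 54 for Elabela and, for apelin, the 13 codons of its active form apelin-13 among 77.
APELA: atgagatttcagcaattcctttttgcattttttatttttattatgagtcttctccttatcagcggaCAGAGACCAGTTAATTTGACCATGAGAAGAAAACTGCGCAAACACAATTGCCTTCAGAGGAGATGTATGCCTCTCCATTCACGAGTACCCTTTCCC
APLN: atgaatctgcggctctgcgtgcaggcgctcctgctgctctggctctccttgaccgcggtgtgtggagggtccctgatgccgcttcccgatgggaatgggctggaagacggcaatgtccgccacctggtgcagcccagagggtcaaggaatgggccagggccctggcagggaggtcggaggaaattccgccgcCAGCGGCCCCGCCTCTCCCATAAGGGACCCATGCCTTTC
The APELA coding bases lie at chr4:164877332-164879005 on the plus strand and those of APLN at chrX:129648629-129654630 on the minus strand, each split over 2 coding exons. Both mature peptides lie at the end of their precursor.

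In the same annotation, the receptor APLNR lies at chr11:57233577-57237250 and its principal transcript has 1 exon and 380 codons. CXCR4 lies at chr2:136114349-136119177 and encodes 352 codons, and ACKR3 lies on the same chromosome at chr2:236567787-236582354 and encodes 362 codons. APELA spans chr4:164877178-164898965, APLN spans chrX:129645259-129654956 and CXCL12 spans chr10:44370165-44386493. No other annotated gene overlaps any of the 6.

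Levels are given as CPM, counts per 1000000 of the library total. Between genes, levels were compared only after division by the length of the principal transcript. On this scale the mean over the 34 libraries was 178 CPM per kb for APLNR, 51.3 for CXCR4, 18.1 for CXCL12, 10.8 for ACKR3, 3.93 for APELA and 0.306 for APLN. These means pool conditions that differ greatly. In Ctrl the ligand APELA was at 28.1 CPM per kb and its receptor APLNR at 0.107, and in DE(a)-DE(b) CXCR4 was at 96.7 CPM per kb and APLNR at 7.68. Library totals ranged from 15522780 to 23439799, so that 3 counts, taken as the floor of detection in a library, corresponded to at most 0.193 CPM.

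Marker genes set the labelled populations apart only in part. The pluripotency genes POU5F1, NANOG and SOX2 summed to 1208 and 1477 CPM in Ctrl, 372 to 826 CPM at 24 h, 85.4 to 406 CPM in DE(b), 75.1 to 198 CPM in PM and 64.6 to 256 CPM in LM medium. The summed level of TBXT, MIXL1 and EOMES, which mark the primitive streak, was 1574 to 2955 CPM at 24 h and at most 1.86 CPM in Ctrl. In DE(b) medium it was 1021 to 1739 CPM, which overlapped the 24 h range. SOX17, FOXA2 and GATA6, which mark definitive endoderm, summed to 582 to 1382 CPM in DE(b) medium and at most 181 CPM in the other media. In PPS-DE(b) that sum came from GATA6, at 467 and 563 CPM, and SOX17, at 113 and 224 CPM. FOXA2 alone, at 2.17 and 11 CPM in PPS-DE(b), was below its 34.6 and 28.8 CPM in DE(a)-LM and so did not set that condition apart. TBX6, MSGN1 and CDX2 (paraxial mesoderm) summed to 371 to 466 CPM in PM medium, and HAND1, ISL1 and FOXF1 (lateral mesoderm) to 451 to 2263 CPM in LM medium. The paraxial sum was higher still in PPS-24h, at 494 and 501 CPM, and at most 81.4 CPM in DE(b) and LM medium. In these bulk libraries, fewer cells of a type and less RNA per cell cannot be told apart.

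On day 1, the apelin receptor and its ligand Elabela moved in opposite directions in all 4 PS populations, and CXCR4 rose in MPS and PPS. The decoy receptor ACKR3 rose in all 4 populations and the chemokine CXCL12 fell in 3 of them. APLNR was all but silent in undifferentiated cells, with 8 counts in each Ctrl library, or 0.361 and 0.425 CPM. At 24 h it stood at 141 and 93.9 CPM in DE(a), 417 and 303 CPM in APS, 783 and 424 CPM in MPS, and 175 and 86.3 CPM in PPS. Every treated library was above both controls. APLNR rose in DE(a) by 8.30 ± 0.58 (SE) on the log2 scale, by edgeR's quasi-likelihood test with Benjamini-Hochberg adjustment (adjusted p = 8.58e-10). The change was 9.90 ± 0.60 in APS (edgeR adjusted p = 5.69e-11), 10.67 ± 0.61 in MPS (edgeR adjusted p = 1.77e-11) and 8.39 ± 0.58 in PPS (edgeR adjusted p = 3.83e-10). Because Ctrl held only 8 counts per library, the size of these folds is less certain than their direction.

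APELA, which embryonic stem cells are known to express, was at 51.2 and 85.4 CPM in Ctrl and between 0.347 and 2.58 CPM in the 8 libraries of 24 h. The groups did not overlap. The log2 fold change of APELA was -5.16 ± 1.00 in DE(a) (edgeR adjusted p = 0.000596), -6.57 ± 1.09 in APS (edgeR adjusted p = 8.29e-05), -6.89 ± 1.11 in MPS (edgeR adjusted p = 4.88e-05) and -5.20 ± 1.00 in PPS (edgeR adjusted p = 0.000388). APLN, the other ligand of the receptor, was at 1.04 and 1.22 CPM in Ctrl and at 0.12 to 2.41 CPM at 24 h. None of its 4 comparisons with Ctrl passed the test, with adjusted p between 0.484 and 0.868 in edgeR. At 24 h, while the receptor was high, neither of its ligands thus exceeded 2.58 CPM in any library.

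CXCR4 separated the 4 populations into a low and a high pair. It was at 1.04 and 1.38 CPM in Ctrl, 1.76 and 0.805 CPM in DE(a), and 2.79 and 1.83 CPM in APS. In MPS it was at 69.4 and 35.0 CPM, and in PPS at 59.8 and 19.5 CPM. The libraries of MPS and PPS were all above those of the other populations. MPS and PPS received BMP4 and also more CHIR99021, 6 µM against 4 µM in APS and 2 µM in DE(a). These 2 differences cannot be told apart here. The log2 fold change from Ctrl was 5.54 ± 0.69 in MPS (edgeR adjusted p = 1.79e-06) and 5.06 ± 0.68 in PPS (edgeR adjusted p = 5.94e-06). It was 0.20 ± 0.82 in DE(a) and 1.02 ± 0.75 in APS, and neither passed the test (edgeR adjusted p = 0.93 and 0.371).

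ACKR3 was at 1.63 and 1.06 CPM in Ctrl. It reached 6.22 and 4.56 CPM in DE(a), 3.42 and 4.07 CPM in APS, 2.39 and 4.73 CPM in MPS, and 11.9 and 12.5 CPM in PPS, all above Ctrl. The log2 fold changes were 2.08 ± 0.45 in DE(a) (edgeR adjusted p = 0.00182), 1.54 ± 0.46 in APS (edgeR adjusted p = 0.0153), 1.47 ± 0.46 in MPS (edgeR adjusted p = 0.0175) and 3.18 ± 0.45 in PPS (edgeR adjusted p = 1.07e-05). The call in APS was lost without APS-24h replicate 2 or Ctrl replicate 2 (highest adjusted p = 0.143), and the call in MPS without MPS-24h replicate 2 or Ctrl replicate 2 (highest adjusted p = 0.264).

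The ligand CXCL12 was at 83.6 and 71.1 CPM in Ctrl. It was lower in DE(a), at 20.9 and 22.5 CPM, in APS, at 16.4 and 12.9 CPM, and in MPS, at 6.88 and 7.53 CPM. PPS was the exception, at 135 and 119 CPM. Its log2 fold change was -1.73 ± 0.27 in DE(a) (edgeR adjusted p = 5.49e-05), -2.32 ± 0.28 in APS (edgeR adjusted p = 1.27e-06) and -3.33 ± 0.29 in MPS (edgeR adjusted p = 1.07e-08). In PPS it rose by 0.74 ± 0.26 (edgeR adjusted p = 0.0371), a call that was lost when any 1 of the 4 libraries compared was left out (adjusted p = 0.0737 to 0.222).

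Of the 6 genes, 4 passed the test in DE(a), 4 in APS, 5 in MPS and 5 in PPS. Over all genes tested, 19.0% passed in DE(a), 24.5% in APS, 30.0% in MPS and 29.8% in PPS. These 4 comparisons share the 2 Ctrl libraries.

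**Figure D1:**
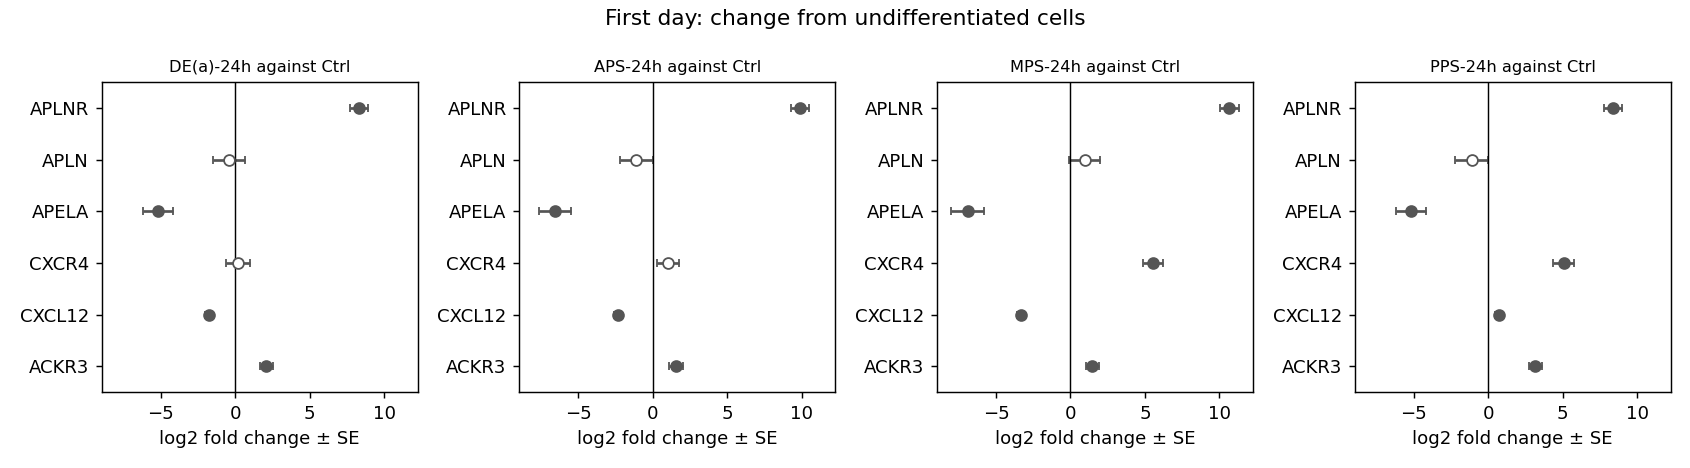
Log2 fold change from Ctrl at 24 h for each gene (horizontal axis, points with bars of ± SE from edgeR), 1 panel per day 1 treatment. Filled points passed the test at an adjusted p of 0.05 and open points did not. APLNR lies far to the right and APELA far to the left in every panel, while CXCR4 is near 0 in DE(a) and APS and near 5 in MPS and PPS.

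Neighbouring day 1 populations were compared directly. From DE(a) to APS, 1 of the 6 genes passed, against 0.732% of all genes tested. This was APLNR, whose level was higher in APS (log2 fold change 1.60 ± 0.38, edgeR adjusted p = 0.0457), and the call was lost when any 1 of the 4 libraries was left out (adjusted p = 0.105 to 0.349). From APS to MPS, CXCR4 alone passed (log2 fold change 4.52 ± 0.64, edgeR adjusted p = 0.000172), against 2.93% of all genes, while CXCL12 fell short at -1.01 ± 0.28 (edgeR adjusted p = 0.0525). From MPS to PPS, which differ only in that PPS received no activin, 3 genes passed against 6.14% of all genes. APLNR was lower in PPS (log2 fold change -2.28 ± 0.38, edgeR adjusted p = 0.000775). CXCL12 was higher by 4.06 ± 0.30 (edgeR adjusted p = 4.5e-08), and ACKR3 by 1.71 ± 0.41 (edgeR adjusted p = 0.0134). The ACKR3 call was lost without MPS-24h replicate 1 or PPS-24h replicate 2 (highest adjusted p = 0.263), and with only these 4 libraries in the fit neither APLNR nor ACKR3 passed. CXCR4 had overlapping values in MPS and PPS (log2 fold change -0.47 ± 0.52, edgeR adjusted p = 0.663).

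The high CXCL12 of PPS went with a higher level of the amnion markers GATA3, TFAP2A and ISL1. Their sum was 126 and 159 CPM in PPS at 24 h, 55.4 and 63.3 CPM in MPS and at most 9.23 CPM in DE(a) and APS, and none of the 3 was at 0 in PPS, although ISL1 is also a marker of lateral mesoderm. The other conditions did not share this order. MPS had the least CXCL12 at 24 h, at 6.88 and 7.53 CPM. Ctrl had 83.6 and 71.1 CPM of CXCL12 with an amnion marker sum of 0.542 and 0.638 CPM. The part of amnion-like cells in the CXCL12 level was not tested.

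On day 2, each established protocol gave its own combination of these genes. From DE(a)-24h to DE(a)-DE(b), CXCR4 and ACKR3 rose and APLNR fell. CXCR4 went from 1.76 and 0.805 CPM to 168 and 154 CPM (log2 fold change 6.89 ± 0.71, edgeR adjusted p = 4.27e-07), and ACKR3 from 6.22 and 4.56 CPM to 99.9 and 103 CPM (4.16 ± 0.43, edgeR adjusted p = 3.86e-07). APLNR went from 141 and 93.9 CPM to 30.6 and 25.6 CPM and fell by 2.13 ± 0.39 (edgeR adjusted p = 0.000274). CXCL12 was at 14.4 and 8.26 CPM and fell by 1.01 ± 0.27 (edgeR adjusted p = 0.00799), a call lost without DE(a)-DE(b) replicate 2 (adjusted p = 0.155). APLN was at least 4.9-fold lower, since both DE(a)-DE(b) libraries were at or under 3 counts (edgeR adjusted p = 0.0493), and the call was lost when any 1 library was left out. Both CXCL12 receptors thus rose in the endoderm protocol while their ligand fell. In all, 5 of the 6 genes passed, against 28.0% of all genes.

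From APS-24h to APS-PM, CXCR4 rose from 2.79 and 1.83 CPM to 232 and 266 CPM (log2 fold change 6.65 ± 0.68, edgeR adjusted p = 2.76e-07). ACKR3 instead fell, from 3.42 and 4.07 CPM to 0.909 and 0.427 CPM (-2.60 ± 0.50, edgeR adjusted p = 0.00047). APLNR rose from 417 and 303 CPM to 1187 and 700 CPM (1.28 ± 0.37, edgeR adjusted p = 0.0134). The APLNR call was lost without APS-PM replicate 1 or APS-24h replicate 2 (highest adjusted p = 0.185). APELA passed on 10.5 and 1.11 CPM against 0.71 and 0.641 CPM (2.98 ± 0.99, edgeR adjusted p = 0.0308). With 1 library left out, its log2 fold change ran from 0.61, without APS-PM replicate 1, to 3.85. The APELA call was lost with only the APS-24h and APS-PM libraries in the fit (edgeR adjusted p = 0.106). Here 4 genes passed, against 25.1% of all genes.

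From MPS-24h to MPS-LM, the direction of CXCR4 was the opposite. CXCR4 went from 69.4 and 35.0 CPM to 0.237 and 3.61 CPM and fell by 4.69 ± 0.65 (edgeR adjusted p = 7.76e-06). APLNR rose from 783 and 424 CPM to 1593 and 1718 CPM, the highest values of any condition (log2 fold change 1.44 ± 0.37, edgeR adjusted p = 0.00488), a call lost without MPS-24h replicate 2 (adjusted p = 0.0972). ACKR3 rose from 2.39 and 4.73 CPM to 16.5 and 12.2 CPM (2.00 ± 0.41, edgeR adjusted p = 0.00063). APLN was at 2.41 and 1.77 CPM in MPS-24h and at or under 3 counts in both MPS-LM libraries, so its level was at least 13.2-fold lower (edgeR adjusted p = 0.0161, lost without MPS-24h replicate 1 or either MPS-LM library). CXCL12 stayed low, at 5.52 and 7.09 CPM. In this comparison 4 genes passed, against 31.3% of all genes.

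By the median over the 8 libraries of each day 2 medium, the media differed in their receptors. DE(b) held both CXCL12 receptors, PM held CXCR4 with little ACKR3, and LM held ACKR3 at intermediate levels with little CXCR4. Bulk libraries do not show whether the same cells carried both. CXCR4 ranged from 156 to 335 CPM with a median of 255 CPM in the 8 PM libraries, from 9.25 to 168 CPM with a median of 67.4 CPM in DE(b), and from 0.107 to 10.3 CPM with a median of 3.57 CPM in LM. No LM library reached the lowest PM library. The DE(b) median of CXCR4 lay in a gap, since its libraries were at 105 CPM or more from DE(a) and APS and at 29.7 CPM or less from MPS and PPS. ACKR3 ranged from 21.1 to 103 CPM in DE(b) with a median of 64.9 CPM, from 0.427 to 2.96 CPM in PM with a median of 0.791 CPM, and from 9.87 to 38.1 CPM in LM with a median of 16.4 CPM. No PM library overlapped a library of the other media. PPS-DE(b) did not follow the medians, since its CXCR4, at 9.25 and 17.5 CPM, overlapped that of PPS-LM, at 9.21 and 10.3 CPM, and its ACKR3, at 21.1 and 26.3 CPM, was below the 34.8 and 38.1 CPM of PPS-LM. APLNR ranged from 587 to 1548 CPM in PM (median 795 CPM), from 511 to 1718 CPM in LM (median 1195 CPM) and over a far wider span, 25.6 to 1447 CPM, in DE(b) (median 224 CPM).

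In the contrast of DE(b) with PM, all 6 genes passed, against 43.0% of all genes. Only ACKR3 was higher in DE(b), by 5.93 ± 0.25 on the log2 scale (edgeR adjusted p = 1.23e-14), where 21.4% of all genes were higher. The other 5 were lower in DE(b), where 21.6% of all genes were lower. CXCR4 was lower by a log2 fold change of -2.31 ± 0.27 (edgeR adjusted p = 2.88e-07) and APLNR by -2.16 ± 0.19 (edgeR adjusted p = 4.07e-09), although for both genes some libraries of the 2 media overlapped. From PPS, APLNR was instead higher in DE(b), at a mean of 1274 CPM against 682 CPM in PM. CXCL12 had a log2 fold change of -0.78 ± 0.14 (edgeR adjusted p = 9.85e-05). APELA had one of -1.24 ± 0.48 (edgeR adjusted p = 0.0427), which was lost when any of 9 of the 16 libraries was left out.

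Among the day 2 media, APLN was detected well only in PM. There it ranged from 0.505 to 10.4 CPM with a median of 1.52 CPM, and the highest library, PPS-PM replicate 2, held 220 counts. In DE(b) 5 of 8 libraries were at or under 3 counts and the highest held 7, and in LM all 8 libraries were at or under 3 counts. The level of APLN was at least 17-fold lower in LM than in PM, with the floor of 3 counts taken per library, and at least 10.1-fold lower without PPS-PM replicate 2 (edgeR adjusted p = 3.77e-06 with all libraries). In DE(b) the mean was 0.146 CPM against 2.73 CPM in PM (edgeR adjusted p = 2.84e-05), and the fitted log2 fold change of -4.10 ± 0.66 rests on few counts. In PM, by contrast, every library held at least 9 counts of APLN, or at least 0.505 CPM. Divided by transcript length, the PM condition means were 0.253 to 2.08 CPM per kb for APLN and 186 to 337 CPM per kb for its receptor.

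In the contrast of LM with PM, 4 genes passed, against 42.0% of all genes. CXCR4 fell by 6.95 ± 0.36 on the log2 scale (edgeR adjusted p = 5.76e-13), and with APLN it made 2 genes lower, as 21.0% of all genes were. ACKR3 was higher by 4.26 ± 0.24 (edgeR adjusted p = 1.89e-12) and CXCL12 by 1.13 ± 0.14 (edgeR adjusted p = 5.79e-07), as again 21.0% of all genes were. The CXCL12 difference lay in cells from PPS, at a mean of 209 CPM in LM and 8.15 CPM in PM. From DE(a) its mean was 24.8 CPM in LM and 29.0 CPM in PM, and from APS 14.3 and 19.9 CPM, so lower in LM. From MPS it was 6.30 and 5.14 CPM. APLNR did not pass, at 0.33 ± 0.18 (edgeR adjusted p = 0.16). In the contrast of LM with DE(b), 4 genes passed, against 39.6% of all genes. APLNR was higher in LM by 2.49 ± 0.19 (edgeR adjusted p = 5.14e-10) and CXCL12 by 1.92 ± 0.14 (edgeR adjusted p = 2.63e-10), where 19.8% of all genes were higher. CXCR4 was lower by a log2 fold change of -4.65 ± 0.35 (edgeR adjusted p = 2.65e-10) and ACKR3 by one of -1.68 ± 0.19 (edgeR adjusted p = 2.16e-07), where likewise 19.8% were lower. In cells from PPS, APLNR and ACKR3 did not follow these averages. There APLNR was at a mean of 1209 CPM in LM and 1274 CPM in DE(b), and ACKR3 at 36.4 and 23.7 CPM. The 3 contrasts of media share libraries in pairs.

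**Figure D2:**
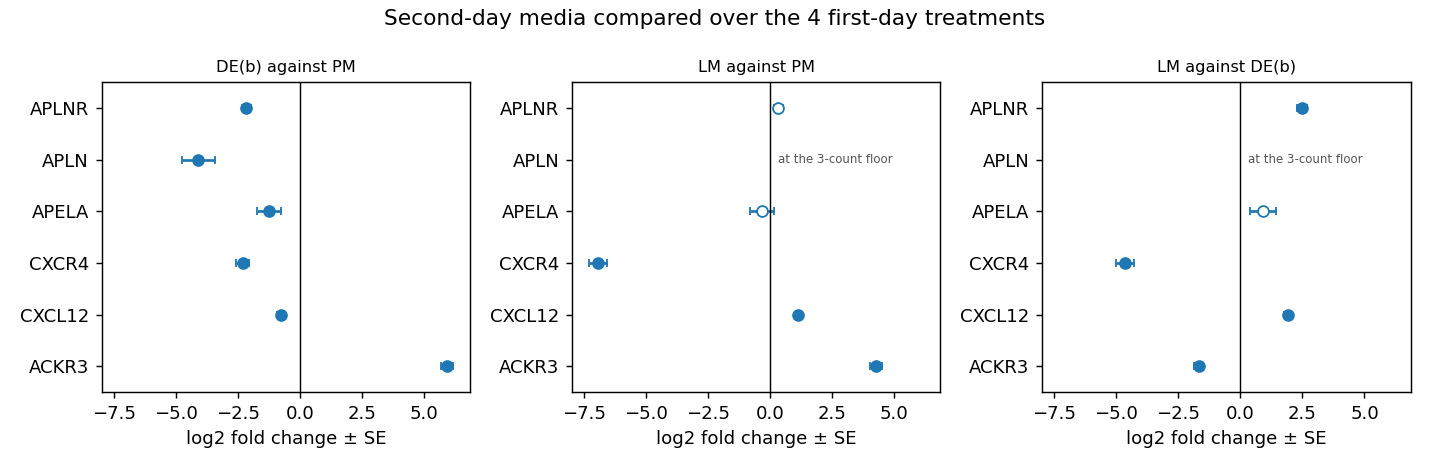
Log2 fold change between day 2 media, averaged over the 4 day 1 treatments (horizontal axis, points with bars of ± SE from edgeR), for each gene. Filled points passed the test at an adjusted p of 0.05, and no point is drawn where all libraries of a medium were at or under 3 counts. CXCR4 lies furthest left in LM against PM and ACKR3 furthest right in DE(b) against PM.

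The endothelial markers PECAM1, CDH5, TEK and EGFL7 were examined because APLNR is also a gene of vessels. Their sum was 36.2 to 147 CPM in LM, 27.5 to 40.2 CPM in PM, 28.5 to 36.8 CPM in DE(b) and 51.6 and 54.5 CPM in Ctrl, where APLNR was all but absent. The highest sums, 124 and 147 CPM, were in MPS-LM, the condition with the most APLNR. They came mostly from TEK, at 108 and 131 CPM, whereas CDH5 was at 0 in both MPS-LM libraries and PECAM1 was at 0.174 and 0.19 CPM. In PPS-DE(b), where APLNR was at 1447 and 1102 CPM, the sum was 33.4 and 30.3 CPM.

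Whether the day 1 treatment still mattered on day 2 was tested within each medium. In DE(b) medium the apelin and CXCL12 receptors followed the day 1 origin in opposite directions. APLNR was at 30.6 and 25.6 CPM in cells that began as DE(a), 91.1 and 81.6 CPM from APS, 447 and 357 CPM from MPS, and 1447 and 1102 CPM from PPS. Each step upwards was larger than the gap between replicates. CXCR4 ran the other way, from 168 and 154 CPM in DE(a)-DE(b) to 105 and 125 CPM from APS, 18.6 and 29.7 CPM from MPS, and 9.25 and 17.5 CPM from PPS, with neighbours apart, if only just for the last step. ACKR3 fell in the same order, from 99.9 and 103 CPM to 77.6 and 89.3 CPM, 50.6 and 52.3 CPM, and 21.1 and 26.3 CPM, again with no overlap between neighbours.

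Markers of several cell types also differed between the origins, but not all along the same order. FOXA2 was at 86.0 and 125 CPM in DE(a)-DE(b), 52.9 and 79.1 CPM from APS, 17.1 and 37.8 CPM from MPS, and 2.17 and 11 CPM from PPS. The sum of the 3 endoderm markers was 881 and 1168 CPM in DE(a)-DE(b), between 1014 and 1382 CPM from APS and MPS, and 582 and 797 CPM from PPS. SOX17 did not decline before PPS, at 330 and 440 CPM from DE(a), 401 and 518 CPM from APS, 391 and 553 CPM from MPS, and 113 and 224 CPM from PPS. GATA6 was at 465 and 604 CPM from DE(a), 587 and 761 CPM from APS, 606 and 791 CPM from MPS, and 467 and 563 CPM from PPS. The lateral mesoderm sum was at most 1.09 CPM from DE(a) and APS, 29.9 and 21.6 CPM from MPS, and 109.9 and 75.7 CPM from PPS. PPS-DE(b) thus had the highest lateral mesoderm sum as well as the most APLNR of the DE(b) conditions. That sum was mostly HAND1, at 100 and 69.3 CPM, with ISL1 at 8.24 and 5.69 CPM and FOXF1 at 1.69 and 0.667 CPM. The paraxial mesoderm sum was 2.27 and 1.92 CPM in DE(a)-DE(b) and 80.6 and 73.6 CPM in PPS-DE(b). TBXT was at 22.2 and 23.8 CPM and at 108 and 85.6 CPM in these conditions, but at only 11.1 and 13.7 CPM from MPS. The pluripotency sum ran the other way, from 406 and 328 CPM in DE(a)-DE(b) to 100.5 and 94.4 CPM in PPS-DE(b). None of these mesoderm markers was at or under 3 counts in both PPS-DE(b) libraries. The part of such cells in the receptor levels was not tested.

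The F-test over the 4 origins within DE(b) passed for 4 genes, APLNR (edgeR adjusted p = 1.29e-08), CXCR4 (0.000104), ACKR3 (0.00234) and CXCL12 (0.00462), against 16.6% of all genes. The ACKR3 call was lost without PPS-DE(b) replicate 1 (adjusted p = 0.0515). In the contrast of PPS-DE(b) with DE(a)-DE(b), 4 genes passed, against 17.4% of all genes. APLNR was higher from PPS by 5.54 ± 0.45 on the log2 scale (edgeR adjusted p = 2.05e-08). CXCR4 was lower from PPS, with a log2 fold change of -3.55 ± 0.57 (edgeR adjusted p = 0.000124), and so were ACKR3, with one of -2.06 ± 0.38 (edgeR adjusted p = 0.000598), and CXCL12, with one of -1.16 ± 0.29 (edgeR adjusted p = 0.00678). The CXCL12 contrast rests on 14.4 and 8.26 CPM against 4.91 and 4.91 CPM and was lost without 3 of the 4 libraries in turn (highest adjusted p = 0.143).

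Over the 8 DE(b) libraries, Pearson's r on the log2(CPM + 1) scale was -0.975 between APLNR and CXCR4, -0.964 between APLNR and ACKR3, and 0.947 between CXCR4 and ACKR3. These values describe 4 origins with 2 libraries each and are given without a test. In PM the same measures were -0.944, 0.817 and -0.903, over a much narrower range. The PM means of APLNR went from 1232 CPM for DE(a) to 682 CPM for PPS and those of CXCR4 from 199.9 to 293 CPM, but the replicates were also set apart. From all 4 origins, APLNR, ACKR3, APELA and CXCL12 were higher and CXCR4 lower in replicate 1 of PM than in replicate 2. Whether the PM replicates differed by batch was not tested. In LM, r was -0.143 between APLNR and CXCR4.

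**Figure D3:**
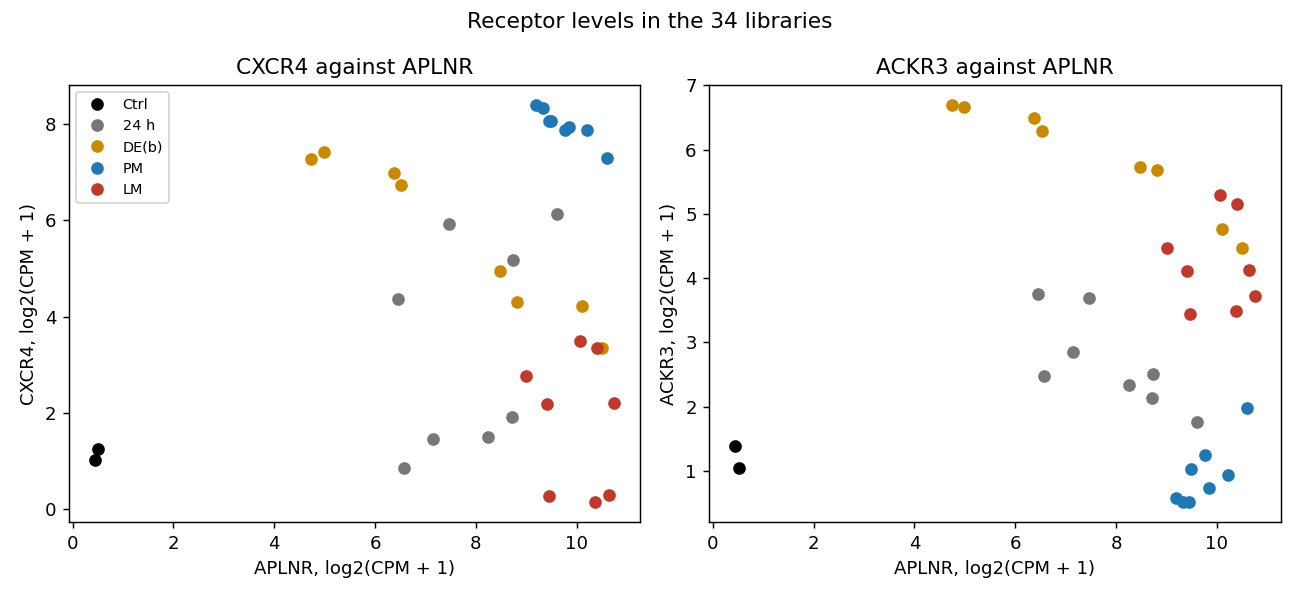
CXCR4 (left) and ACKR3 (right) against APLNR in each of the 34 libraries, all on the log2(CPM + 1) scale, with 1 point per library coloured by day 2 medium (24 h and Ctrl libraries have none). The 8 DE(b) libraries run from top left to bottom right in both panels, the PM libraries sit high in the left panel and low in the right, and the LM libraries sit at high APLNR with low CXCR4.

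In PM medium none of the 3 receptors passed the test over the day 1 origins. APLNR was at 1548 and 916 CPM from DE(a), 1187 and 700 CPM from APS, 869 and 587 CPM from MPS, and 721 and 643 CPM from PPS, and its F-test did not pass (edgeR adjusted p = 0.442). CXCR4 was between 156 and 335 CPM from every origin (edgeR adjusted p = 0.952), and ACKR3 was below 3 CPM in all 8 libraries (edgeR adjusted p = 0.218). Without the filter on low counts, APLNR (edgeR adjusted p = 0.000467) and ACKR3 (edgeR adjusted p = 0.000408) passed. The ligands CXCL12 (edgeR adjusted p = 1.19e-05) and APELA (edgeR adjusted p = 0.0164) differed and made 2 of the 6 genes, against 7.47% of all genes. CXCL12 was at 30.5 and 27.6 CPM from DE(a), 22.5 and 17.3 CPM from APS, 5.36 and 4.92 CPM from MPS, and 10.1 and 6.19 CPM from PPS. APELA was at 31.8 and 6.57 CPM in DE(a)-PM and at 10.5 and 1.11 CPM in APS-PM, so that its replicates differed more than most neighbouring conditions. MPS-PM and PPS-PM held at most 2.41 CPM of it. The APELA call was lost without DE(a)-PM replicate 1, MPS-PM replicate 2 or PPS-PM replicate 2 (highest adjusted p = 0.35), with DESeq2 (adjusted p = 0.153) and with only the 8 PM libraries in the fit (edgeR adjusted p = 0.304). The pluripotency gene SOX2 was at 14.5 and 4.05 CPM in DE(a)-PM and at most 3.68 CPM in the other PM libraries.

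In the contrast of PPS-PM with DE(a)-PM, the same ligands passed, 2 of 6 against 8.61% of all genes. CXCL12 had a log2 fold change of -1.81 ± 0.28 (edgeR adjusted p = 0.000183) and APELA one of -3.27 ± 0.92 (edgeR adjusted p = 0.0292), the latter lost without DE(a)-PM replicate 1 or either PPS-PM library (highest adjusted p = 0.487). APLN was at 2.96 and 10.4 CPM in PPS-PM and 1.13 and 0.505 CPM in DE(a)-PM and did not pass (3.05 ± 1.1, edgeR adjusted p = 0.0954).

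In LM medium 5 of the 6 genes differed between the origins. CXCL12 was at 158 and 259 CPM in PPS-LM, against 25.1 and 24.5 CPM from DE(a), 15.7 and 13 CPM from APS, and 5.52 and 7.09 CPM from MPS. Cells from PPS, which were high in CXCL12 at 24 h, were thus also the highest after a day in LM medium, whereas in DE(b) and PM medium they held no more than 10.1 CPM. APELA was at 64.7 and 29.0 CPM in DE(a)-LM, which reached the range of Ctrl, at 6.6 and 1.02 CPM from APS, at 0.233 and 0.332 CPM from MPS, and at 2.36 and 1.09 CPM from PPS. The pluripotency sum was likewise highest in DE(a)-LM, at 256 and 163 CPM, against 131 and 109.7 CPM from APS, 78.5 and 64.6 CPM from MPS, and 95.6 and 95.3 CPM from PPS. Within it, SOX2 was at 26.5 and 10.6 CPM in DE(a)-LM and at 0.263 and 0.109 CPM in PPS-LM. Outside LM medium, APELA and this sum did not always go together. The sum was 826 and 634 CPM in DE(a)-24h and 406 and 328 CPM in DE(a)-DE(b), with APELA at no more than 5.04 CPM in either. Ctrl had the highest mean of both. The part of cells that kept these markers in the APELA level was not tested. Among the receptors, APLNR was at 511 and 676 CPM from DE(a), 703 and 1323 CPM from APS, 1593 and 1718 CPM from MPS, and 1349 and 1068 CPM from PPS. CXCR4 was at 5.81 and 3.54 CPM from DE(a), 0.206 and 0.107 CPM from APS, 0.237 and 3.61 CPM from MPS, and 9.21 and 10.3 CPM from PPS. ACKR3 was lowest from APS, at 9.87 and 10.3 CPM, and highest from PPS, at 34.8 and 38.1 CPM.

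The F-test within LM passed for 5 genes, against 19.6% of all genes. They were CXCL12 (edgeR adjusted p = 1.06e-10), APELA (5.42e-05), CXCR4 (0.000393), ACKR3 (0.0036) and APLNR (0.0218). The APLNR call was lost without either DE(a)-LM library or MPS-LM replicate 2 (highest adjusted p = 0.175). In the contrast of PPS-LM with DE(a)-LM, 3 genes passed, against 14.3% of all genes. CXCL12 was higher from PPS by 3.17 ± 0.28 on the log2 scale (edgeR adjusted p = 8.78e-08), and APELA lower, with a log2 fold change of -4.65 ± 0.98 (edgeR adjusted p = 0.00185). APLNR was higher by 1.11 ± 0.37 (edgeR adjusted p = 0.0467), a call lost when any 1 of the 4 libraries was left out (adjusted p = 0.0763 to 0.318). ACKR3 was at 1.06 ± 0.38 and did not pass (edgeR adjusted p = 0.0657).

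The amnion markers GATA3, TFAP2A and ISL1 also varied within LM medium, summing to 295 and 397 CPM in PPS-LM, 226 and 288 CPM in DE(a)-LM, 89.9 and 104 CPM in APS-LM and 77.6 and 126 CPM in MPS-LM. None of the 3 was at 0 in any LM library. PPS-LM, the highest in these markers, was also the highest in CXCL12, but DE(a)-LM held nearly as many markers with 24.5 to 25.1 CPM of CXCL12. The part of amnion-like cells in these levels was not tested.

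The effect of the day 1 origin differed between the 3 media for 5 of the 6 genes, by an F-test of the interaction over the 12 day 2 conditions, against 13.1% of all genes. The adjusted p in edgeR was 2.31e-08 for CXCL12, 1.19e-06 for APLNR, 6.94e-05 for CXCR4, 0.000898 for ACKR3 and 0.0426 for APELA. With only the day 2 libraries in the fit, APELA did not pass (edgeR adjusted p = 0.106). The APELA call was lost without any of 15 of the 24 libraries (highest adjusted p = 0.11), and APLN did not pass (edgeR adjusted p = 0.664). Set side by side, the log2 fold change of APLNR from DE(a) to PPS origin was 5.54 in DE(b), -0.83 in PM (edgeR adjusted p = 0.183) and 1.11 in LM. That of CXCR4 was -3.55, 0.57 (edgeR adjusted p = 0.565) and 1.18 (edgeR adjusted p = 0.229). That of CXCL12 was -1.16, -1.81 and 3.17.

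**Figure D4:**
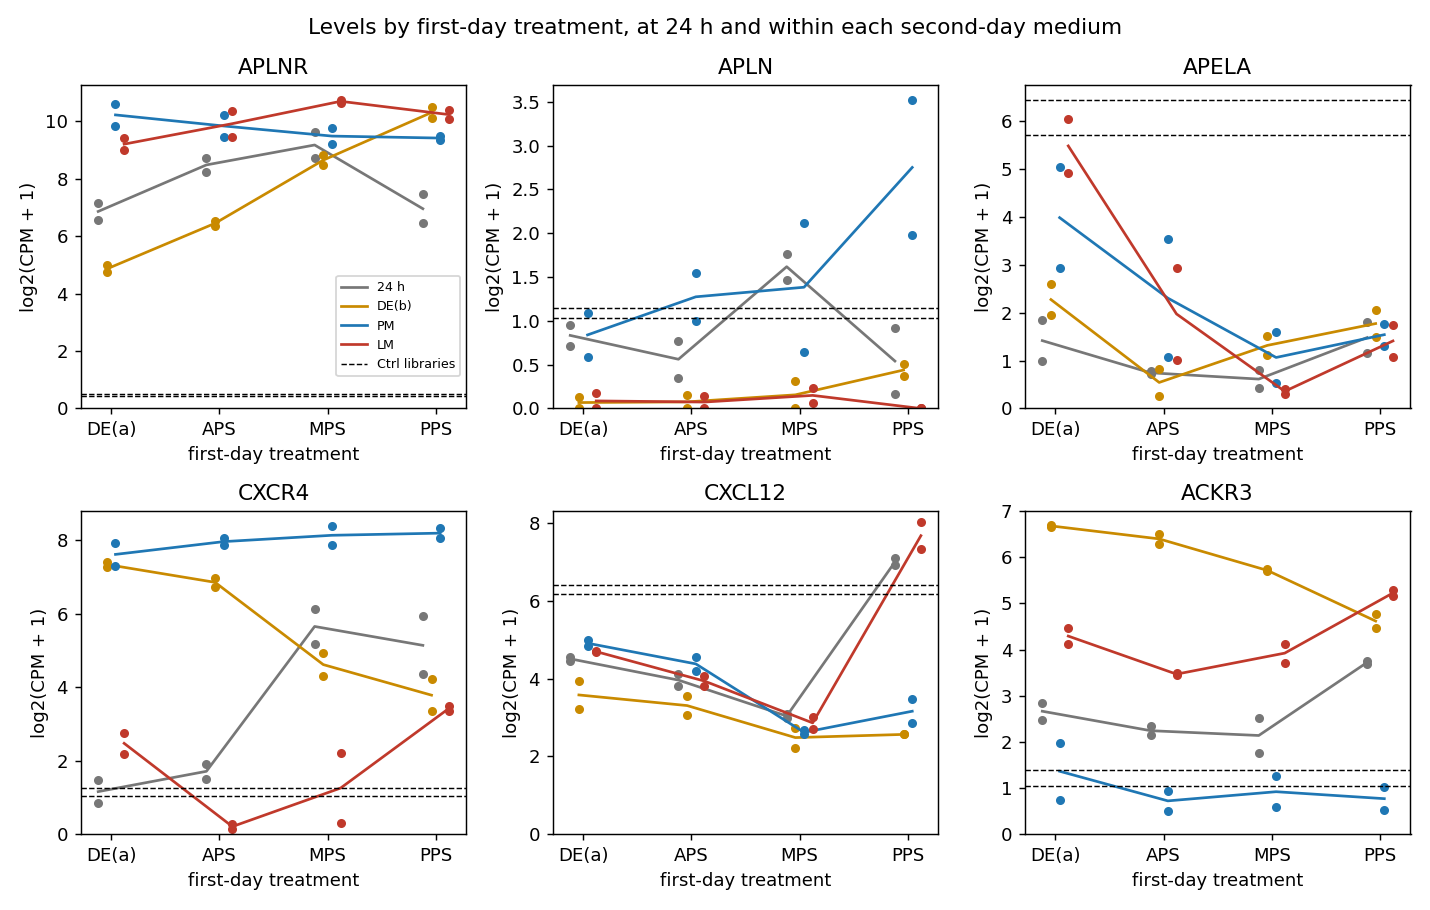
Level of each gene, on the log2(CPM + 1) scale, by day 1 treatment (horizontal axis), with 1 point per library and a line through the means for 24 h and for each day 2 medium. Dashed lines are the 2 Ctrl libraries. In DE(b) medium APLNR climbs from DE(a) to PPS while CXCR4 and ACKR3 decline, and CXCL12 is high in PPS at 24 h and in LM medium.

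Ordered by their mean level over the 17 conditions, the genes had different leaders. APLNR was highest in MPS-LM at a mean of 1656 ± 88.4 CPM (SD, n = 2), apart from PPS-DE(b) at 1274 ± 244 CPM, and the 8 steps from there down to DE(a)-LM at 594 ± 116 CPM each joined conditions whose libraries overlapped. CXCR4 was highest in PPS-PM at 293 ± 39.3 CPM, and the 4 PM conditions and DE(a)-DE(b) at 161 ± 9.92 CPM formed an unbroken chain of overlaps, set off from APS-DE(b) at 115 ± 14.2 CPM. ACKR3 was highest in DE(a)-DE(b) at 101 ± 2.05 CPM, apart from APS-DE(b) at 83.4 ± 8.29 CPM. CXCL12 was highest in PPS-LM at 209 ± 70.9 CPM, then PPS-24h at 127 ± 11.2 CPM and Ctrl at 77.4 ± 8.89 CPM, none overlapping the next. APELA was highest in Ctrl at 68.3 ± 24.2 CPM and DE(a)-LM at 46.8 ± 25.3 CPM, and all 16 neighbouring pairs of its order overlapped. APLN was highest in PPS-PM at 6.7 ± 5.29 CPM. Neighbours overlapped in 10 of 16 pairs for APLNR, 10 for CXCR4, 9 for ACKR3, 8 for CXCL12 and 14 for APLN.

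Over the 20 comparisons, APLNR passed the test in 16, CXCL12 in 16, ACKR3 in 15, CXCR4 in 13, APELA in 11 and APLN in 4. Depending on the comparison, 0.732% to 43.0% of all genes passed. The 16 contrasts between conditions or media gave 59 calls, and in 59 of them both replicates moved in the direction of the fitted change. For this count libraries were matched by replicate number. The calls were made on these same libraries, so such agreement was close to given beforehand.

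The other genes of these pathways were read from lists. Of 10 regulators of G-protein signalling, which shorten the signals of such receptors, 9 were tested, and from PM to LM 7 were higher and 0 lower, with a median log2 fold change of 3.62 against 0.0042 over all genes, of which 21.0% were higher and 21.0% lower. RGS5 ranged from 218 to 893 CPM in LM and from 12 to 73.9 CPM in PM (log2 fold change 4.14 ± 0.23, edgeR adjusted p = 1.76e-12). RGS2 ranged from 58.5 to 152 CPM in LM and from 6.48 to 11.4 CPM in PM (3.62 ± 0.15, edgeR adjusted p = 1.95e-14). Of the 11 G-protein subunits, receptor kinases and arrestins, 1 was higher and 7 were lower in LM than in PM, where 21.0% of all genes were higher and 21.0% lower, with a median of -0.28. Among them GNAI2, which carries the inhibitory signal of CXCR4 and APLNR, was at 143 to 381 CPM in all libraries and differed between DE(b) and PM by a log2 fold change of 0.57 ± 0.09 (edgeR adjusted p = 1.62e-05). GNAI3, of the same family, was at 119 to 176 CPM.

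Of 10 enzymes known to cut these ligands, 9 were tested, and from Ctrl 5 were higher and 0 lower in DE(a), 4 higher and 1 lower in APS, 6 higher and 2 lower in MPS, and 6 higher and 2 lower in PPS. Of all genes, 19.0%, 24.5%, 30.0% and 29.8% were called in either direction in these comparisons. Their median log2 fold change was 0.73, 1.06, 1.06 and 1.40 in these comparisons, against at most 0.0271 over all genes. The protease MMP2, which inactivates CXCL12 by cutting its end, was at 58.7 to 72.1 CPM in Ctrl, 136 to 223 CPM at 24 h, 140 to 272 CPM in DE(b), 258 to 498 CPM in PM and 278 to 748 CPM in LM. It was lower in DE(b) than in PM by a log2 fold change of -0.98 ± 0.10 (edgeR adjusted p = 4.46e-08). MMP14, which activates it, was at 45.8 to 66.7 CPM in Ctrl and 154 to 654 CPM in treated libraries. Of 5 other reported ligands or partners of CXCR4 and ACKR3, 4 were tested, and at most 2 changed in any contrast. From PM to LM, where 42.0% of all genes were called, 1 was higher and 0 lower, with a median of -0.04. HMGB1, which binds CXCL12, was at 535 to 867 CPM and MIF, another CXCR4 ligand, at 116 to 415 CPM throughout.

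Of 20 other chemokine receptors, 11 were tested, and at most 3 changed in any contrast. The contrasts with 3 called 24.5% to 43.0% of all genes. From PM to LM, where 42.0% were called, 1 was higher and 2 were lower, with a median of -0.76. The most abundant by mean, CCR7, did not exceed 9.87 CPM, and CCR10 did not exceed 1.71 CPM. CCR7 was lower in LM than in PM by a log2 fold change of -2.64 ± 0.23 (edgeR adjusted p = 2.84e-09).

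The genes most like each member over the 17 condition means of log2(CPM + 1) are given as a description. For APLNR they were ZEB2 (Pearson's r = 0.932), ARID3A (0.913) and CDH11 (0.912). For CXCR4 they were SNX10 (0.910), CYP7B1 (0.909) and KREMEN1 (0.896), all highest in PM medium. For ACKR3 they were SPACA6 (0.932), HSPD1P11 (0.929) and MMP15 (0.920), all highest in DE(b) medium, and HSPD1P11 is a pseudogene whose reads may come from its parent gene. For CXCL12 they were SHROOM3 (0.843), KRT7 (0.840) and GPNMB (0.834), all highest in PPS-LM. For APELA they were VSTM2B (0.941), KCNA1 (0.886) and TCEA1 (0.882), and for APLN, at its low counts, ABCB1 (0.927), TRAC (0.906) and TRMT5 (0.901). With a pseudocount of 0.1 the leading gene stayed the same for APLNR, CXCR4, CXCL12 and APELA.

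RefSeq promoter windows of 300 bases on GRCh38.p14, from 250 before to 50 after a start site, were at hand for APELA, APLN, CXCL12 and 3 start sites of CXCR4, and were searched on both strands. The TCF/LEF letters CTTTGAA or CTTTGAT and the FOXH1 letters AATNCACA occurred once each, both in the same window of CXCR4 at chr2:136116186-136116485, inside the gene. In all 35116 windows they occurred in 6.86% and 3.31%. The hypoxia element ACGTG occurred in the APELA window, as in 21.4% of all windows, and the GATA letters AGATAA, the T-box letters AGGTGT and the E-box CACGTG (which holds the letters ACGTG) were in none of the 6, against 10.3%, 11.4% and 7.26% of all windows. APLNR and ACKR3 had no entry.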

How the data were processed

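RNA of 34 ESI017 libraries was poly(A)-selected and sequenced as stranded, paired-end libraries. The authors quantified transcripts with Salmon (1.10.2) on GRCh38, correcting for sequence-specific and GC biases, and used R 4.4.2, per the submitters' processing notes and the study's methods. The estimated count values deposited by the authors are not normalized and not filtered. No column was left unmatched (0 columns).

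Estimated counts were rounded and tested with edgeR 4.0.16 in R 4.3.3: TMM normalization, filterByExpr by condition, 1 mean per condition over all 34 libraries (17 residual degrees of freedom, common dispersion 0.0611), quasi-likelihood tests and Benjamini-Hochberg adjustment over 17895 genes, with calls at 0.05. CPM is the estimated count per 1000000 of the library total. The steps were tested on simulated data. With 2 replicates per condition, the precision is limited. The SE of a fold change includes the variation between libraries, while the floor of 3 counts covers counting error only.

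The genes and lists were chosen with earlier results of these data known. Genes named are the 6 members, the 2 most abundant genes of each list and, for each member, the 3 genes with the highest Pearson's r over the 17 condition means. MIF and POU5F1 are listed under several identifiers, of which the most abundant was taken. Positions come from GENCODE v44 and promoter windows from RefSeq. Protein sequences were not used here, and 1 marker list is not reported here. Alternatives were RLE normalization, no filter, a replicate block, only the libraries compared, DESeq2 1.42.0, a pseudocount of 0.1, and each library left out in turn.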

Additional observations from a re-analysis of the deposited data

Results flagged for a closer look

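For 5 of the 6 genes, the effect of the day 1 treatment differed between DE(b), PM and LM medium, by an F-test of the interaction in edgeR over the 24 libraries of day 2. The adjusted p was 2.31e-08 for CXCL12, which was high from PPS in LM medium only. It was 1.19e-06 for APLNR, 6.94e-05 for CXCR4 and 0.000898 for ACKR3, whose fitted changes from DE(a) to PPS origin were largest in DE(b) medium. Over all origins, CXCR4 also spread widely in LM medium, from a mean of 0.157 CPM from APS, at 4 and 2 counts, to 9.73 CPM from PPS. For APELA it was 0.0426, and its level was highest from DE(a) in LM medium, where its replicates were at 64.7 and 29.0 CPM. The APELA call was lost with only the day 2 libraries in the fit (edgeR adjusted p = 0.106), and it also depended on single libraries.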

How the results depend on the processing

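Of the results for single genes, 119 of 120 kept their direction and side of the threshold with RLE normalization, 118 of 120 with a replicate block, 113 of 118 with DESeq2, 104 of 115 with only the libraries compared, 102 of 120 without the filter on low counts, where 18 more passed, and 805 of 888 with 1 library left out, where the lone library of a condition is assumed to vary like the other conditions. The number of the 6 genes called changed by over 1.5 times in the following cases. From DE(a)-24h to APS-24h, 1 became 2 without the filter and 0 with only the libraries compared. From APS-24h to MPS-24h, 1 became 2 with RLE, with DESeq2 and with the replicate block, where CXCL12 passed, and 3 without the filter. From MPS-24h to PPS-24h, 3 became 1 with only the libraries compared. Among the 4 origins within PM, 2 became 5 without the filter and 1 with only the libraries compared or DESeq2. For PPS-PM against DE(a)-PM, 2 became 6 without the filter and 1 with only the libraries compared, and for PPS-LM against DE(a)-LM, 3 became 5 without the filter. In the other comparisons and settings, with no library of the comparison left out, the number changed by at most 1. The causes were not tested.

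With 1 library left out, the counts ran from 0 to 0 for APS-24h against DE(a)-24h, from 3 to 4 for DE(a)-DE(b) against DE(a)-24h, from 2 to 4 for APS-PM against APS-24h, from 1 to 3 among the origins within PM and from 1 to 3 for PPS-PM against DE(a)-PM. The sign changed for 7 results, none of which had passed with all libraries. Their log2 fold changes ran from -0.49 to 0.63 for CXCR4 in DE(a)-24h against Ctrl, -0.92 to 0.13 for APELA and -0.62 to 0.34 for ACKR3 in MPS-24h against APS-24h, -1.51 to 0.13 for CXCR4 in PPS-24h against MPS-24h, -0.42 to 0.023 for CXCL12 in MPS-LM against MPS-24h, -0.79 to 0.25 for APELA in LM against PM, and -2.07 to 0.14 for ACKR3 in PPS-PM against DE(a)-PM.

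The labels list the second replicates in a table marked as a repeat but do not say that libraries of the same number share a culture or a day, so the libraries were not treated as paired. Over 14647 genes, deviations of same-numbered libraries correlated by more than 0.1 in 96 of 136 pairs of conditions (median r = 0.162, lowest -0.196). Besides CXCL12 in MPS-24h against APS-24h (adjusted p = 0.0341 with the block in edgeR), the block changed 1 call, ACKR3 in PPS-LM against DE(a)-LM (0.0428), which also passed with DESeq2 (0.0264) and with only the libraries compared (0.00795). With a pseudocount of 0.1, the 3 genes most like a member stayed the same for CXCR4 and ACKR3, and 0 of 3 stayed for APLN. Depth limits APLN most, with 14 of 34 libraries at or under 3 counts.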
